A study of Mus musculus with 6 samples.

Results

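The genes described here encode the oxidative phosphorylation (OXPHOS) machinery of the mitochondrion, measured by RNA-seq in mouse tumors. Members were protein-coding genes whose symbols begin with Nduf, Uqcr, Atp5, Cox4i, Cox5, Cox6, Cox7 or Cox8, together with Sdha to Sdhd and all genes with the prefix mt-, with predicted genes and pseudogenes left out. The rule used names only and found 107 genes of the 54232 counted, 94 encoded in the nucleus and 13 in mitochondrial DNA. The nuclear members comprised 38 complex I subunits, 8 complex I assembly factors (the Ndufaf genes), 4 genes of complex II, 8 of complex III, 18 of complex IV and 18 of complex V. The mitochondrial members comprised 7 genes of complex I, 1 of complex III, 3 of complex IV and 2 of complex V. Atp5o was annotated under 2 identifiers, of which ENSMUSG00000116933 had 0 counts in every library.

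The 6 libraries were made from mammary tumors of mice that all carried the NIC transgene, 3 with the genotype CdGAP fx/fx (fx1 to fx3) and 3 with the genotype CdGAP wt/wt (wt1 to wt3). The NIC transgene joins an activated ErbB2 (Neu) oncogene to Cre recombinase under the promoter of the mouse mammary tumor virus, so that a floxed gene is recombined in the mammary epithelial cells that express the oncogene and stays intact in other cells of the tumor. The floxed gene is Arhgap31, which encodes CdGAP, a GTPase-activating protein for Cdc42 and Rac1. The labels give neither the age of the mice nor whether each library is a separate animal, so the p-values speak only of the spread among these 6 samples, which may be technical.

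Oxidative phosphorylation passes electrons from NADH (complex I) and succinate (complex II) through complex III to oxygen at complex IV, and complex V uses the resulting proton gradient to make ATP. Complex II is encoded wholly in the nucleus, while the other complexes combine nuclear subunits with subunits translated inside the mitochondrion from mitochondrial DNA. Several nuclear subunits have tissue-restricted isoforms, and the transcription factors NRF1, GABPA (NRF2) and YY1 are known to bind many of the nuclear genes' promoters.

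Libraries held between 36732137 (fx2) and 53606276 (fx1) counts. Arhgap31 (ENSMUSG00000022799), the check of the labels, had 155, 44.1 and 115 CPM (counts scaled to a common library size, with TMM factors) in fx1, fx2 and fx3, against 664, 432 and 549.4 CPM in wt1, wt2 and wt3. The genotypes did not overlap, at 105 ± 56.4 CPM in fx/fx and 548 ± 116 CPM in wt/wt (SD, n = 3 each), with a log2 fold change of -2.38 (fx/fx over wt/wt) and an edgeR quasi-likelihood adjusted p of 0.153. Epithelial markers (Epcam, keratins and others, 7 of 7 detected) summed to between 3418 and 4706 CPM in fx/fx and between 3340 and 3975 CPM in wt/wt, so both genotypes held a tumor epithelium. Adipocyte markers (8 of 8 tested, all with higher fitted levels in fx/fx) summed to between 78.8 and 252 CPM in fx/fx and between 17.8 and 56.0 CPM in wt/wt, and fibroblast markers (5 of 6 higher) to between 81.3 and 170.1 CPM in fx/fx and between 40.3 and 49.2 CPM in wt/wt. Erythroid markers (3 of 3 tested higher) summed to between 514 and 606 CPM in fx/fx and between 115 and 285 CPM in wt/wt, and basal or myoepithelial markers (5 of 6 higher) to between 30.8 and 60.0 CPM in fx/fx and between 21.2 and 26.4 CPM in wt/wt. Endothelial markers (6 of 6 higher) summed to between 96.5 and 193 CPM in fx/fx and between 82.4 and 105 CPM in wt/wt, with overlap. Macrophage markers (4 higher, 2 lower) summed to between 184 and 412 CPM in fx/fx and between 217 and 362 CPM in wt/wt, with overlap. T cell markers (0 higher, 5 lower) summed to between 2.72 and 8.75 CPM in fx/fx and between 4.34 and 13.7 CPM in wt/wt, with overlap. The part of these differences in tissue makeup in the OXPHOS values below was not tested. In bulk tumor RNA, fewer cells of a type and less RNA per cell cannot be told apart.

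The OXPHOS genes as a group stood at nearly the same level in both genotypes. Of the 107 members, 97 passed the filter on low counts (90 nuclear, 7 mitochondrial), and 60 of them had a higher and 37 a lower fitted level in fx/fx, where all genes tested split into 8305 higher and 8447 lower. The median log2 fold change was 0.055 over the 97 members and -0.0043 over all 16752 genes tested. For 88 members (90.7%) the log2 fold change lay within 0.5 of zero in either direction, as it did for 67.1% of all genes tested. The SE of a member's log2 fold change ranged from 0.144 to 0.595 with a median of 0.205, which is the precision that 3 libraries a genotype gave.

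No single member passed the threshold of edgeR's quasi-likelihood test (Benjamini-Hochberg adjusted p under 0.05): 0 of 97 were called, where 0% of all genes tested were. At an unadjusted p under 0.05 edgeR gave 3 members (3.09%), against a background of 14.2% of all genes. These 3 were Ndufb7 and Ndufs3, higher in fx/fx (background 8.18%), and Sdhb, lower (background 6.04%). DESeq2, which called 4.96% of all genes, called 1 member (1.03%), namely Sdhb, where it called 1.95% of all genes lower in fx/fx. By limma-voom 0 members passed. The genotypes did not overlap for 5 members (5.15%), against 19.7% of all genes: Ndufs3, Ndufb7 and Ndufaf5 had all fx/fx libraries above all wt/wt libraries (background 9.74%), and Sdhb and Ndufb9 had all of them below (background 9.93%). By the unadjusted p, by DESeq2 and by separation, the members' share was below that of all genes.

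**Figure D1:**
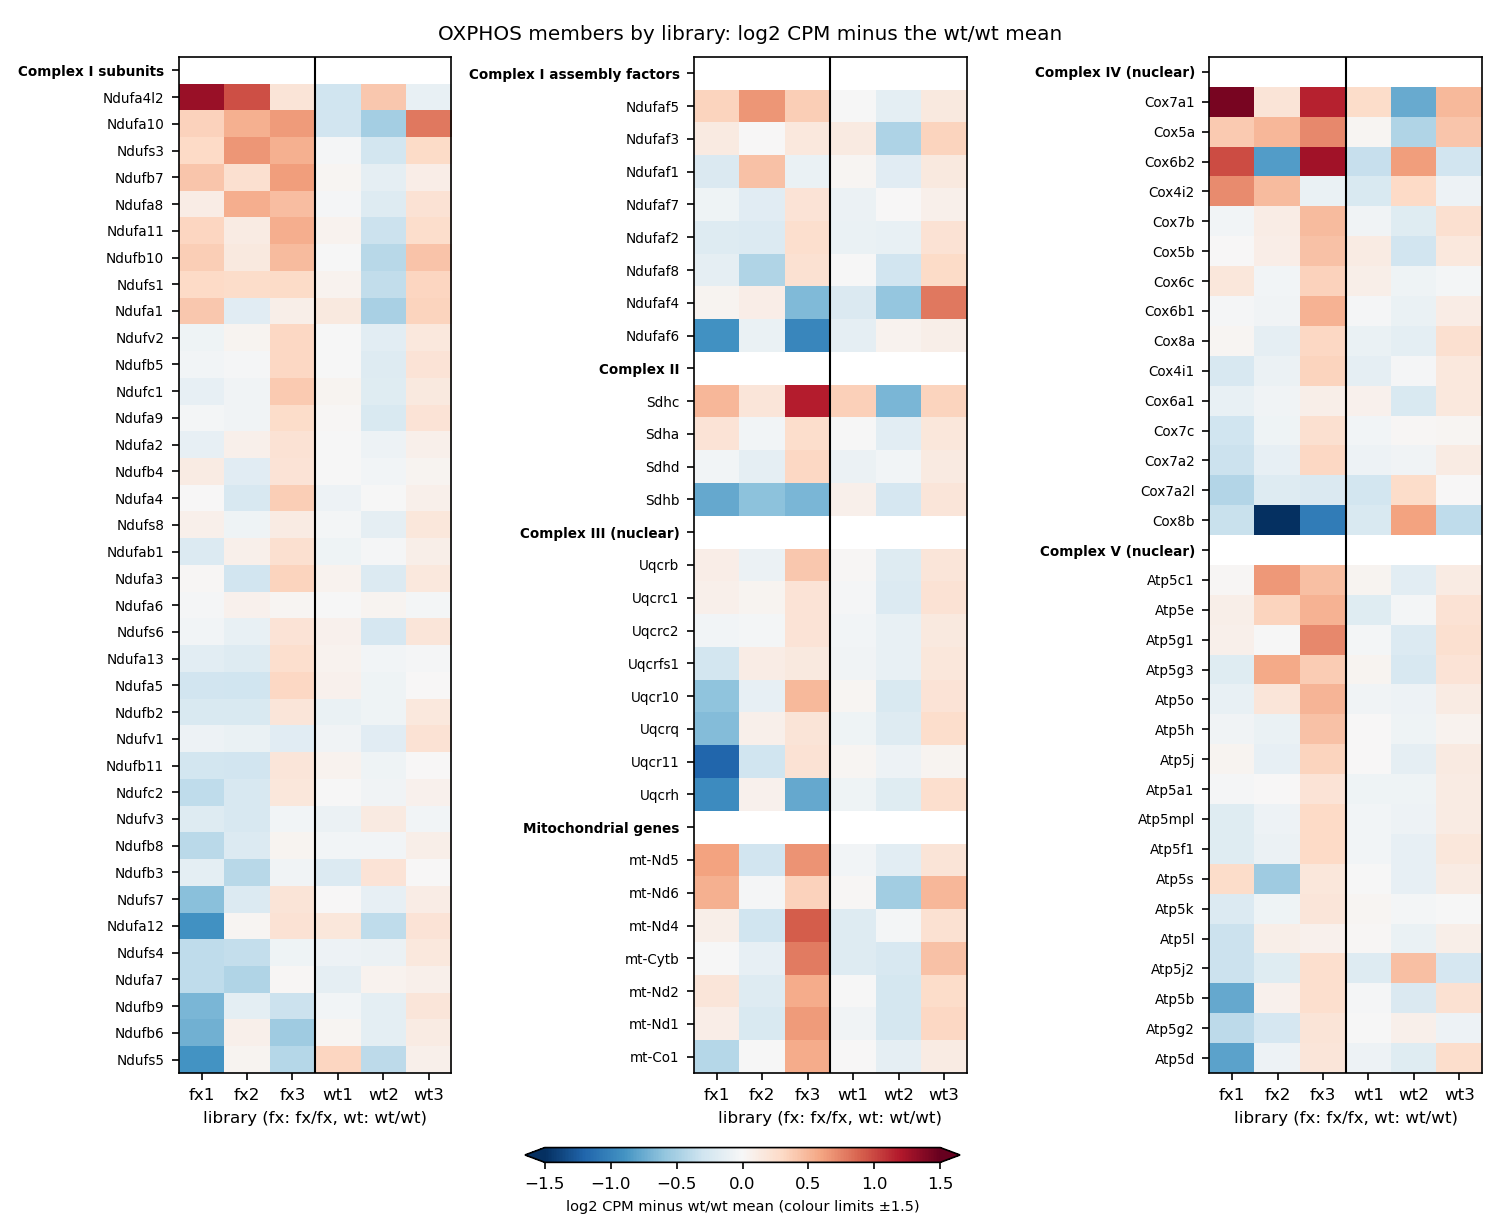
Level in each library of the members that passed the filter, 1 complex I subunit not drawn, as log2 CPM minus the mean of the 3 wt/wt libraries (red higher, blue lower), with fx/fx libraries left of the line and members ordered within each complex by their mean difference. Most rows are pale, fx3 is redder than the other libraries in most complexes, and most rows that stand out, such as Uqcrh and Ndufaf6 in blue and Sdhc in red, differ between the fx/fx libraries, while Sdhb is blue in all 3.

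Libraries differed more than genotypes did. Relative to the wt/wt mean, the median log2 level of the 90 nuclear members was -0.076 in fx1, -0.058 in fx2 and 0.24 in fx3, and -0.011 in wt1, -0.13 in wt2 and 0.15 in wt3. The fx3 library was therefore highest and wt2 lowest, with the 2 genotypes interleaved between them. The same order at the top, fx3 followed by wt3, held for complex I subunits (0.21 and 0.15), complex II (0.28 and 0.17), complex III (0.21 and 0.19), complex IV (0.33 and 0.13) and complex V (0.29 and 0.12), while for complex I assembly factors fx3 and wt3 were both at 0.18. The 1 departure among the complexes was complex III in fx1, whose median was -0.44, below every other complex in every library.

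Across all libraries the median log2 fold change was 0.040 for complex I subunits (22 higher, 16 lower), -0.024 for complex I assembly factors (3 higher, 5 lower) and 0.098 for complex II (3 higher, 1 lower). It was -0.0089 for complex III (4 higher, 4 lower), 0.16 for complex IV (10 higher, 5 lower) and 0.029 for complex V (11 higher, 6 lower). Without fx3 the median was below zero for every class: -0.089 for complex I subunits, -0.086 for assembly factors, -0.0038 for complex II, -0.17 for complex III, -0.042 for complex IV and -0.080 for complex V. Over all 90 nuclear members it was 0.040 with all libraries, -0.078 without fx3 and -0.011 without wt2. Without wt2 the complex I median was also below zero, at -0.042. The medians of assembly factors and of complex III, below zero with all libraries, were above it without wt3 (0.090 and 0.073) and without fx1 (0.013 and 0.11), and that of assembly factors also without fx2 (0.024). The sign of every class median thus depended on single libraries.

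**Figure D2:**
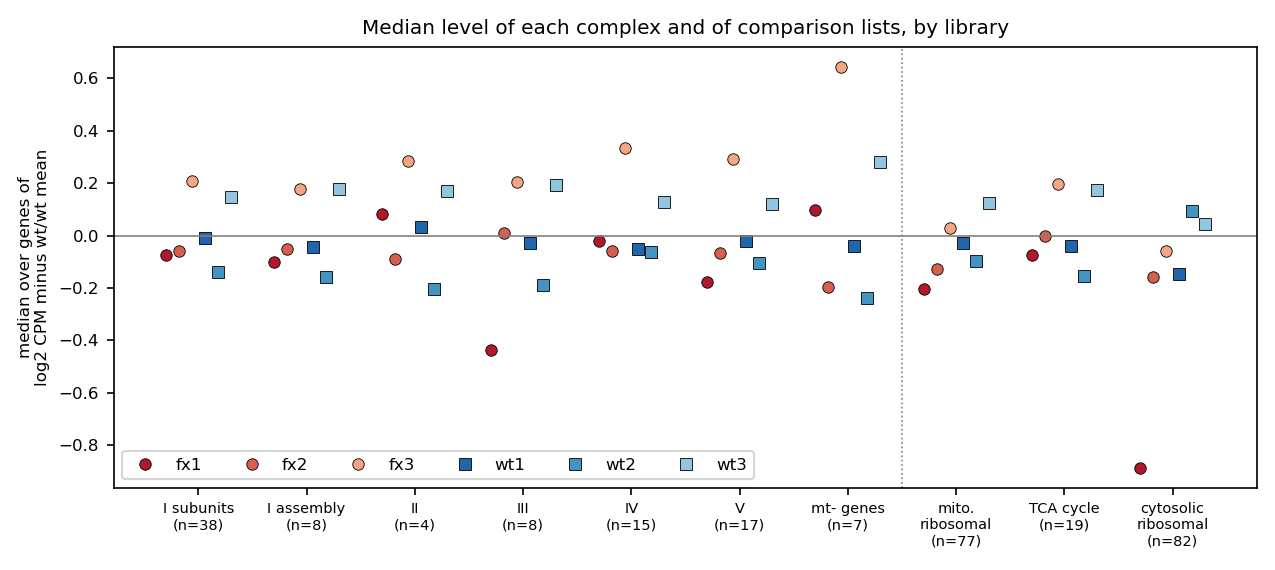
Median over genes of log2 CPM minus the wt/wt mean in each library (circles, fx/fx; squares, wt/wt), for nuclear members by complex and for mt- genes, with 3 other gene lists right of the dotted line and the number of genes tested under each name. Within each OXPHOS class the genotypes interleave, complex III in fx1 lies at -0.44, and cytosolic ribosomal protein genes in fx1 lie at -0.89, apart from every OXPHOS class.

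Complex I is built around 7 nuclear core subunits that carry the flavin and iron-sulfur clusters, and the other nuclear subunits are supernumerary. The core genes had a median log2 fold change of 0.098 (5 higher, 2 lower) and the 31 supernumerary genes 0.024 (17 higher, 14 lower). By name the 31 include Ndufa4 and its paralog Ndufa4l2, although the Ndufa4 protein is a subunit of complex IV. Levels per transcript length ran from 6.99 TPM (counts per base of gene length, scaled to a common total; mean of 6 libraries) for Ndufs5 to 551 TPM for Ndufb11, with a median of 151 TPM. Ndufs5 is one of the members whose counts are uncertain, since 31.1% of its 50-base windows also occur in a transcript of BC002163 on another chromosome.

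Ndufs3 (ENSMUSG00000005510, chromosome 2, 90894634 to 90904827, minus strand, GRCm38), a core subunit of the module that binds quinone, had 75.3, 96.9 and 88.0 CPM in fx1, fx2 and fx3, against 60.3, 50.5 and 74.7 CPM in wt1, wt2 and wt3. Every fx/fx library was above every wt/wt library, although fx1 and wt3 were nearly equal. The log2 fold change was 0.49 (SE 0.201) with an edgeR adjusted p of 0.335, which did not pass. A share of 35.8% of its 50-base windows occurs in other annotated genes, mostly the pseudogene Gm12251, so its counts are less certain than those of most members.

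Ndufb7 (ENSMUSG00000033938, chromosome 8, 83566671 to 83571626, plus strand), a supernumerary subunit of the membrane arm, had 77.9, 68.9 and 90.5 CPM in the fx/fx libraries, against 59.7, 53.1 and 62.7 CPM in the wt/wt libraries. The lowest fx/fx library was above the highest wt/wt library, with a gap of a few CPM. The log2 fold change was 0.43 (SE 0.174, edgeR adjusted p 0.323).

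Ndufb9, another supernumerary subunit of the membrane arm, had 75.1, 109.6 and 96.5 CPM in fx1, fx2 and fx3, against 118, 109.7 and 137 CPM in wt1, wt2 and wt3. The genotypes did not overlap, yet fx2 and wt2 were nearly equal. The log2 fold change was -0.38 (SE 0.196) and the edgeR adjusted p 0.437. Ndufb6, also of the membrane arm, had a log2 fold change of -0.36 (SE 0.238), with fx1 and fx3 at 32.5 and 36.9 CPM but fx2 at 56.2 CPM, within the wt/wt range of 48.1 to 58.2 CPM.

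Ndufa10, a supernumerary subunit of the membrane arm, had 84.7, 96.7 and 104 CPM in fx/fx and 54.6, 46.9 and 116 CPM in wt/wt, where wt3 was the highest of all.

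Assembly factors help build complex I and are not part of the finished enzyme. They were measured at lower levels than the subunits, with a median of 29.9 TPM over the 8 genes. Ndufaf5, which hydroxylates the core subunit Ndufs7, had 14.03, 17.6 and 14.4 CPM in the fx/fx libraries, against 11.1, 10.1 and 12.3 CPM in the wt/wt libraries. The genotypes did not overlap, and the log2 fold change was 0.46 (SE 0.224, edgeR adjusted p 0.406). Ndufaf6 had 3.63, 6.32 and 3.44 CPM in fx1, fx2 and fx3, against 6.18, 7.05 and 7.20 CPM in wt1, wt2 and wt3. Here fx2 lay among the wt/wt libraries while fx1 and fx3 were about equally low, and the log2 fold change was -0.61 (SE 0.339, edgeR adjusted p 0.463). Ndufaf4 spread most among the wt/wt libraries themselves, from 9.17 CPM in wt2 to 23.7 CPM in wt3, and Ndufaf1 had a log2 fold change of 0.064 (SE 0.246).

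Subunits of complex II had fold changes of opposite sign. Sdhb, the iron-sulfur subunit, and Sdhc, one of the pair of membrane anchors, had log2 fold changes of -0.70 and 0.61, while Sdha, the flavoprotein that oxidises succinate, had 0.14 (SE 0.180) and Sdhd, the other anchor, 0.055 (SE 0.182). Sdhb (ENSMUSG00000009863, chromosome 4, 140961203 to 140979193, plus strand) had 46.7, 51.9 and 49.4 CPM in fx1, fx2 and fx3, against 83.9, 66.6 and 89.9 CPM in wt1, wt2 and wt3. All fx/fx libraries were below all wt/wt libraries, and the fx/fx libraries lay close together. The means were 49.3 ± 2.59 CPM in fx/fx and 80.1 ± 12.1 CPM in wt/wt (SD, n = 3 each), and fx/fx was 1.62-fold lower.

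For Sdhb the SE of the log2 fold change was 0.176 and the edgeR adjusted p 0.192, which did not pass. The DESeq2 adjusted p was 0.0274, which passed, so Sdhb fell by that test alone. The DESeq2 call was kept without fx2 (adjusted p 0.0219) or without wt2 (0.00208) and lost without fx1 (0.111), fx3 (0.0982), wt1 (0.250) or wt3 (0.188). An exact 2-sided permutation test of its 6 values gave p = 0.1, and a design of 3 against 3 cannot reach a smaller one. Sdhc had 167, 134 and 265 CPM in the fx/fx libraries and 150, 73.1 and 148 CPM in the wt/wt libraries. The fx3 library was high and wt2 low, the genotypes overlapped, and the edgeR adjusted p was 0.485 (SE 0.352).

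Complex III held its largest differences in 2 small subunits. Uqcrh, the hinge protein that faces cytochrome c1, had 79.8, 159.6 and 90.3 CPM in fx1, fx2 and fx3, against 146, 135 and 182 CPM in wt1, wt2 and wt3. Its fx1 and fx3 values were below every wt/wt library and its fx2 value was not, and the log2 fold change was -0.49 (SE 0.287, edgeR adjusted p 0.488). Uqcr11 had 52.3, 96.5 and 138 CPM in the fx/fx libraries and 121, 113 and 123 CPM in the wt/wt libraries. The wt/wt libraries agreed closely, whereas the fx/fx libraries spread by more than their distance from wt/wt, with a log2 fold change of -0.32 (SE 0.323). Uqcrb and the core protein gene Uqcrc1 had log2 fold changes of 0.14 (SE 0.193) and 0.10 (SE 0.177).

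Complex IV contained both the most strongly expressed nuclear member by length, Cox8a at 1667 TPM, and most of the weakest. Cox5a had 151, 163 and 190.1 CPM in the fx/fx libraries and 118, 84.6 and 154 CPM in the wt/wt libraries. Only fx1 and wt3 broke the separation, and the log2 fold change was 0.50 (SE 0.242, edgeR adjusted p 0.404). Cox7a2l, which joins complex III and complex IV into supercomplexes, had a log2 fold change of -0.30 (SE 0.192), at 63.4, 75.5 and 74.0 CPM in fx/fx against 71.2, 104 and 86.5 CPM in wt/wt. Cox6a1 stood at -0.034 (SE 0.175) and Cox4i1, the common isoform of the largest nuclear subunit, at 0.019 (SE 0.214).

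Tissue-restricted isoforms made up a small part of complex IV transcripts. Cox7a1, the isoform of heart, skeletal muscle and brown fat, had 14.4, 6.13 and 11.9 CPM in fx1, fx2 and fx3, against 6.49, 3.17 and 7.51 CPM in wt1, wt2 and wt3. The fx2 library lay within the wt/wt range, and the log2 fold change was 0.92 (SE 0.443, edgeR adjusted p 0.403). Measured per length, Cox7a1 was 16.1%, 6.65% and 9.28% of the sum of Cox7a1 and Cox7a2 in the fx/fx libraries and 6.78%, 3.40% and 6.84% in the wt/wt libraries. Cox8b, another isoform of heart and muscle, had its log2 fold change in the opposite direction, -1.004 (SE 0.490, edgeR adjusted p 0.408), with 2.46, 0.883 and 1.503 CPM in fx/fx against 2.66, 4.73 and 2.38 CPM in wt/wt.

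The markers of cells that use these isoforms did not move alike. Of 10 skeletal muscle markers 3 were tested, 1 with a higher and 2 with a lower fitted level in fx/fx. The 10 summed to between 2.26 and 44.5 CPM in fx/fx and between 6.39 and 19.6 CPM in wt/wt, with overlap. Their sum was highest in fx2, where Cox8b was lowest, and Acta1 and Myh4 supplied 13.4 and 8.94 CPM of it. Ckm and Cox8b were both highest in wt2 (Ckm at 7.57 CPM), and Mb was highest in wt1 (13.5 CPM). Brown adipocyte markers summed to between 39.7 and 60.5 CPM in fx/fx and between 24.4 and 39.5 CPM in wt/wt, without overlap, but Ppargc1a supplied between 32.4 and 48.3 CPM of that sum in fx/fx and between 21.8 and 37.2 CPM in wt/wt. The defining marker Ucp1 was at 0, 0.428 and 5.38 CPM in fx1, fx2 and fx3 and at 0.0664, 0.0223 and 0 CPM in wt1, wt2 and wt3. Cidea, a lipid droplet protein of brown fat, had 9.20, 2.70 and 4.95 CPM in fx/fx, against 0.221, 1.54 and 1.46 CPM in wt/wt, and Dio2, a deiodinase, had 2.95, 1.79 and 1.55 CPM in fx/fx, against 1.33, 0.804 and 0.764 CPM in wt/wt. Both were without overlap and highest in fx1, the library where Cox7a1 was highest and Ucp1 was at 0. Otop1, also listed, had 0.0564, 2.36 and 0.582 CPM in fx/fx, against 0.864, 0.246 and 0.0655 CPM in wt/wt. The genotypes overlapped for Otop1, and fx1 had its lowest value. Elovl3, another listed marker, had 0.121 CPM or less in every library. All 4 tested markers of the 6 listed had higher fitted levels in fx/fx. The part of brown fat or muscle cells in the Cox7a1 and Cox8b levels was not tested. Ndufa4l2, the hypoxia-induced paralog of Ndufa4, had 4.21, 3.35 and 1.96 CPM in fx/fx and 1.395, 2.28 and 1.59 CPM in wt/wt, and the log2 fold change was 0.86 (SE 0.413, edgeR adjusted p 0.403). Pericyte markers, named here because Ndufa4l2 is a known marker of those cells, summed to between 359.9 and 418 CPM in fx/fx and between 219.9 and 322 CPM in wt/wt (7 of 7 with higher fitted levels in fx/fx), and their part was not tested. Ndufa4 itself keeps a complex I name although its protein is a subunit of complex IV, and it had a log2 fold change of 0.066 (SE 0.196).

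**Figure D3:**
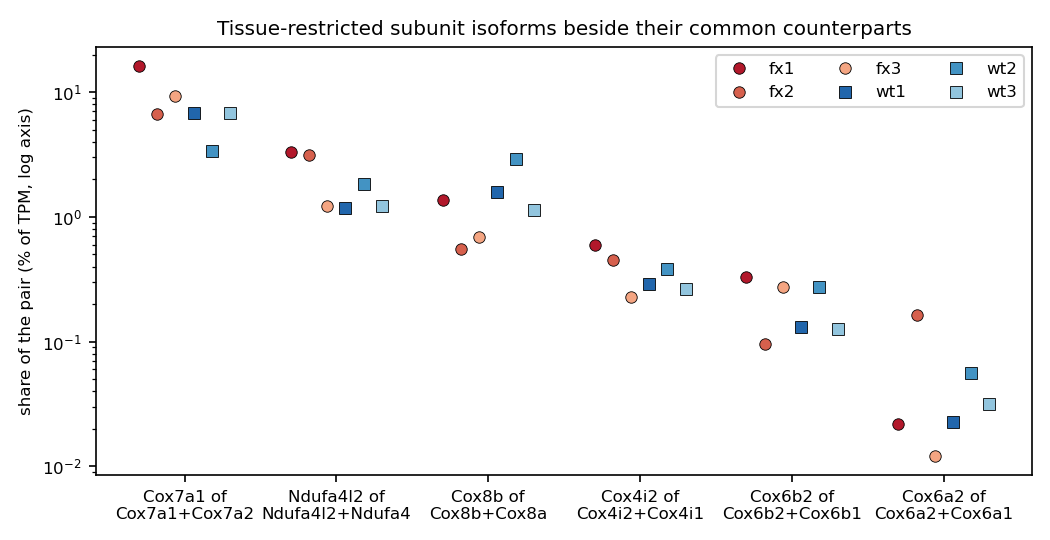
Share of each tissue-restricted isoform in the TPM sum of the isoform and its common counterpart, in percent on a log axis, by library (circles, fx/fx; squares, wt/wt). Cox7a1 is between 6.65% and 16.1% of its pair in fx/fx and between 3.40% and 6.84% in wt/wt, and every other isoform is at most 3.30% of its pair.

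The remaining isoforms were near the limit of detection. Cox4i2, the oxygen-responsive isoform of lung, had between 0.558 and 0.978 CPM in fx/fx and between 0.509 and 0.737 CPM in wt/wt, and Cox6b2, a testis isoform, between 0.268 and 1.14 CPM in fx/fx and between 0.376 and 0.737 CPM in wt/wt. Cox6a2, Cox7b2 and Cox8c had too few counts to be tested, and the highest value among them was 0.294 CPM, for the muscle isoform Cox6a2 in fx2. The common counterparts Cox6b1, Cox7a2, Cox7b and Cox8a had log2 fold changes of 0.17, -0.022, 0.19 and 0.074, each within its SE of between 0.202 and 0.208.

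Complex V, the ATP synthase, has a catalytic F1 head and a membrane ring of c subunits joined by a stalk. Atp5c1, the central stalk (gamma) subunit, had 349, 539.7 and 470.2 CPM in fx1, fx2 and fx3, against 353, 306 and 374 CPM in wt1, wt2 and wt3. The fx1 library lay among the wt/wt libraries and the other fx/fx libraries above them, with a log2 fold change of 0.39 (SE 0.220, edgeR adjusted p 0.464). Atp5e, the epsilon subunit of the same stalk, had a log2 fold change of 0.32 (SE 0.190), and Atp5d, its delta subunit, -0.19 (SE 0.275). The fx1 library alone was low for Atp5d, at 138 CPM, against a range from 212 to 290.1 CPM over the other 5 libraries.

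The catalytic subunits did not share one pattern either. Atp5b, the beta subunit, had 809 CPM in fx1 and 1440.1 and 1649 CPM in fx2 and fx3, against 1360, 1190.1 and 1622 CPM in the wt/wt libraries, whereas Atp5a1, the alpha subunit with the same number of copies in the enzyme, had 1137 CPM in fx1 and between 1105 and 1328 CPM over the other libraries. Atp5b stood therefore far below wt/wt in fx1 and Atp5a1 did not. The 3 genes for the c subunit encode the same mature protein. Of these, Atp5g1 and Atp5g3 had log2 fold changes of 0.29 (SE 0.241) and 0.28 (SE 0.245), and Atp5g2 had -0.13 (SE 0.200).

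The mitochondrial genes with usable counts all had fitted levels above wt/wt, by less than the spread between libraries. The 7 that passed the filter were mt-Nd1, mt-Nd2, mt-Nd4, mt-Nd5 and mt-Nd6 of complex I, mt-Cytb of complex III and mt-Co1 of complex IV, and their log2 fold changes ranged from 0.092 (mt-Co1, SE 0.341) to 0.38 (mt-Nd5, SE 0.319) with a median of 0.24. None of the 7 separated the genotypes, and the smallest edgeR adjusted p was 0.642. The mt-Cytb transcript, cytochrome b, had 3828, 3536 and 6593 CPM in fx1, fx2 and fx3, against 3360, 3266 and 5212 CPM in wt1, wt2 and wt3. The fx3 and wt3 libraries were high and the other 4 close together, as for the nuclear members.

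Apart from mt-Nd6, which lies on the opposite strand, these transcripts come from shared polycistronic precursors, so they are not independent of one another. Without fx3 the median log2 fold change of the 7 genes was -0.073. In that fit mt-Co1, mt-Cytb, mt-Nd1, mt-Nd2 and mt-Nd4 were below zero, while mt-Nd5 and mt-Nd6 stayed above it. That all 7 had the same direction thus rested on fx3. The mt-Co1 transcript, the catalytic subunit of complex IV, had 5243, 6985 and 10318.5 CPM in the fx/fx libraries and 7074, 6402 and 7679 CPM in the wt/wt libraries, and its fx1 value was the lowest of the 6. In the same library mt-Nd5 was high, at 3174 CPM in fx1, 1701 CPM in fx2 and 3312 CPM in fx3, against 2025, 1867 and 2390.4 CPM in wt1, wt2 and wt3. In fx1 these 2 mitochondrial transcripts thus stood on opposite sides of the wt/wt range.

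Summed over members, the 7 mitochondrial genes that passed the filter exceeded the nuclear ones in every library. The mitochondrial sum lacks the 6 genes with almost no counts, and mt-Nd4 and mt-Co1 can miss reads, as described below. The ratios given here can therefore be too low. The mitochondrial sum was 18289, 16936 and 29138 CPM in fx1, fx2 and fx3, against 17738, 16332 and 22026 CPM in wt1, wt2 and wt3. The nuclear sum was 10058, 11575 and 13743 CPM in the fx/fx libraries, against 11131, 10367 and 12684 CPM in the wt/wt libraries. The ratio of the 2 sums was 1.82, 1.46 and 2.12 in fx/fx, against 1.59, 1.58 and 1.74 in wt/wt. The fx/fx ratios lay on both sides of the wt/wt ones. On the log2 scale the ratio was 0.83 ± 0.27 in fx/fx and 0.71 ± 0.077 in wt/wt (SD, n = 3 each), a difference of 0.12 that is smaller than the fx/fx spread. The difference was -0.0022 without fx3 and 0.27 without fx2.

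The other 6 mitochondrial genes had almost no counts. The mt-Co2 gene had 3, 7 and 11 counts in fx1, fx2 and fx3, against 3, 6 and 6 counts in wt1, wt2 and wt3, while mt-Co1, which lies next to it on mitochondrial DNA apart from transfer RNA genes, had between 260951 and 425654 counts. The mt-Co3, mt-Atp6, mt-Atp8, mt-Nd3 and mt-Nd4l genes had between 0 and 9 counts in any library. These counts cannot be read as transcript levels, and complex V has no usable mitochondrial value. A cluster of 7 annotated pseudogenes on chromosome 1 (24611535 to 24616197, GRCm38) carries a copy of this stretch of mitochondrial DNA. The file headers record no setting that counts multi-mapping reads, and without it a read that matches both places equally enters neither gene.

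The letters below show how closely the copies match mt-Co2 and mt-Co1, a neighbouring pair with very different counts. They are GENCODE M21 transcript sequence on GRCm38, the first pair from the start of mt-Co2 (chrMT:7013-7092, plus strand) and its copy Gm28661 (chr1:24615486-24615565, minus strand). The second pair is from mt-Co1 (chrMT:6381-6460, plus strand) and the 5′ end of its shorter copy Gm29216 (chr1:24616118-24616197, minus strand). Capitals mark bases that differ within a pair.
mt-Co2: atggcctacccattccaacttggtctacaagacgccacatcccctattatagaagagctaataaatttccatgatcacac
Gm28661: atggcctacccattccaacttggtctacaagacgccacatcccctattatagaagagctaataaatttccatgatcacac
mt-Co1: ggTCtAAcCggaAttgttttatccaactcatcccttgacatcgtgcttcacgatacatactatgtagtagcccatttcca
Gm29216: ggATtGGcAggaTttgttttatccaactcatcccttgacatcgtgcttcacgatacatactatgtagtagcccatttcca
Over the 681 bases that mt-Co2 and Gm28661 share, 0 differed, and over the 492 bases of Gm29216, 6 differed from mt-Co1. The copy covers almost all of mt-Co2 but only the last part of mt-Co1.

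The share of 50-base windows found in other genes went with the counts. It was 100% for mt-Co2, 99.9% for mt-Co3, 99.5% for mt-Atp6, 98.8% for mt-Nd4l and 98.0% for mt-Nd3, all with counts near 0, and 62.2% for mt-Nd4 and 51.1% for mt-Co1 whose counts can miss the reads of the shared stretch in both genotypes. It was 8.19% for mt-Nd2, 7.61% for mt-Nd5 and 0% for mt-Nd1, mt-Nd6 and mt-Cytb. The exception was mt-Atp8, which shared 0% with annotated transcripts and yet had between 0 and 5 counts. Its place in the copy falls in the gap between the annotated pseudogenes Gm10925 and Gm28661, which was not analysed here. The pseudogenes themselves had between 0 and 107 counts. Among the 90 nuclear members with a transcript in the test, 55 shared no window, 12 shared over 10% and 3 over 30%, the highest being Ndufb4 at 37.0%.

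**Figure D4:**
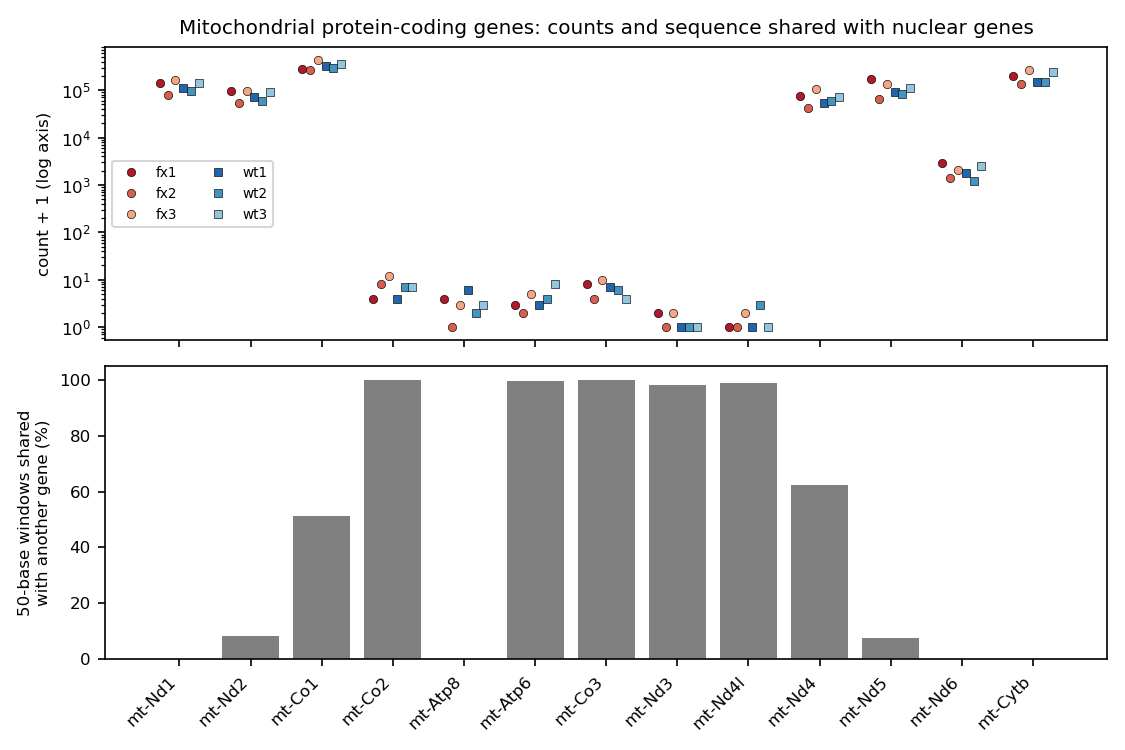
Upper panel, count plus 1 of each mitochondrial protein-coding gene in each library on a log axis (circles, fx/fx; squares, wt/wt), in the order of the genes on mitochondrial DNA. Lower panel, percent of the gene's 50-base windows that occur in another annotated gene. The 6 genes from mt-Co2 to mt-Nd4l have at most 11 counts in any library, and 5 of them share at least 98.0% of their windows.

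The 2 ribosomal RNA genes of mitochondrial DNA, which are no members because they encode no protein, differed more than the mRNAs. The mt-Rnr2 gene, the large ribosomal RNA, had 1028, 879.8 and 1047 CPM in fx1, fx2 and fx3, against 639, 541 and 487 CPM in wt1, wt2 and wt3. The genotypes did not overlap, and the level was 1.77-fold higher in fx/fx (log2 fold change 0.83, SE 0.210), with an edgeR adjusted p of 0.193 and a DESeq2 adjusted p of 0.00681, so mt-Rnr2 rose by DESeq2 alone. The mt-Rnr1 gene, the small ribosomal RNA, had 575, 464 and 318 CPM in fx/fx and 339, 250.2 and 251 CPM in wt/wt, with overlap (log2 fold change 0.69, SE 0.264, edgeR adjusted p 0.308). Libraries can differ in how much ribosomal RNA their preparation leaves, which was not tested. Both genes were chosen after their values were seen.

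Some of the nuclear members that stood apart in a library had a level difference similar to that of the genes around them, and others did not. For each nuclear member the median of the other protein-coding genes within 10 Mb was taken in each library (between 20 and 270 genes, mean log2 CPM over 3). On chromosome 4, 6 of 6 tested members (Ndufaf4, Ndufaf6, Ndufb6, Ndufs5, Sdhb and Uqcrh) had a lower fitted level in fx/fx, with a median log2 fold change of -0.45. The other genes of that chromosome had a median of -0.70 in fx1, of -0.12 in fx2 and of -0.83 in fx3. Sdhb stood at -0.77, -0.61 and -0.69 in fx1, fx2 and fx3, and its neighbours at -0.71, -0.44 and -0.80. Uqcrh stood at -0.94, 0.059 and -0.76, and its neighbours at -0.70, -0.11 and -0.80.

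On some other chromosomes members also stood with their neighbours in single libraries, and on some they did not. On chromosome 2, 8 of 8 tested members (Atp5c1, Atp5e, Atp5g3, Cox4i2, Ndufa8, Ndufaf1, Ndufaf5 and Ndufs3) had a higher fitted level in fx/fx, and in fx2 the members' median was 0.56 and that of the other genes 0.42. In fx3 the chromosome 2 members stood at 0.42 and the other genes at only 0.084. On distal chromosome 1, Sdhc stood at 1.17 in fx3 and its neighbours at 0.99, and at -0.68 in wt2 where its neighbours were at -0.54. On chromosome 10, Atp5b, Atp5d, Ndufs7, Ndufa12 and Uqcr11 stood between -1.19 and -0.63 in fx1, and the other genes of that chromosome at -0.61. On chromosome 11, Uqcr10 and Uqcrq stood at -0.60 and -0.65 in fx1, as did their neighbours at -0.60 and -0.65. Atp5g1, Atp5h and Ndufaf8, elsewhere on chromosome 11, stood at 0.08, -0.06 and -0.14 in fx1. In fx3 the chromosome 11 members had a median of 0.44 and the other genes of -0.14, on the other side of zero.

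**Figure D5:**
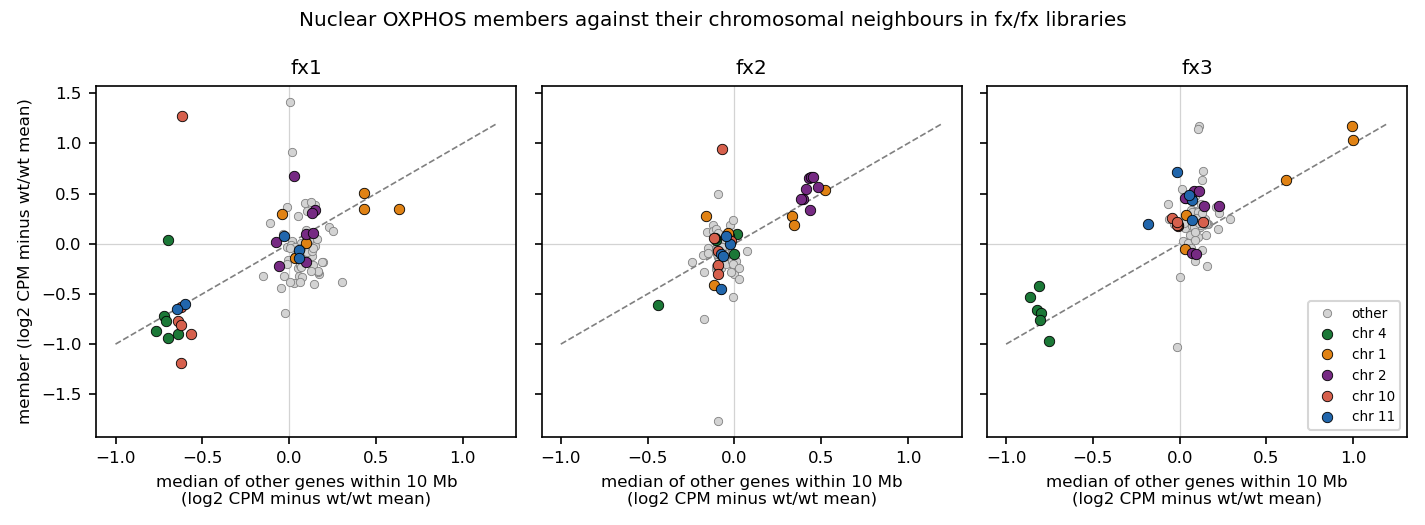
Each of the 90 nuclear members in each fx/fx library: vertical axis, its log2 CPM minus the wt/wt mean; horizontal axis, the median of the same quantity over other protein-coding genes within 10 Mb; the dashed line marks equal values. Members of chromosome 4 lie low on both axes in fx1 and fx3, apart from Ndufaf4 at 0.039 in fx1, those of chromosome 2 high in fx2, those of distal chromosome 1 high in fx3, and those of chromosome 10 low in fx1 apart from Ndufa4l2.

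Subtracting the neighbours narrowed the members' spread without removing it. Over the 90 nuclear members the SD of the fx/fx minus wt/wt difference was 0.31 before and 0.25 after, and 52 members moved nearer to zero and 38 further away. Across these members the difference and that of the neighbours had a Pearson r of 0.58, a description over genes that share libraries and, in part, neighbours. The low complex III median of fx1 was -0.44 before and -0.064 after. For Sdhb the difference was -0.69 before and -0.042 after. Some members kept their difference: that of Ndufb7 was 0.43 before and 0.35 after, that of Cox5a 0.54 before and 0.47 after, and that of Ndufa4l2 0.80 before and 1.02 after. Cox8b and Cox7a1, with the lowest and highest log2 fold change of all members, kept theirs too. That of Cox8b was -1.04 before and -1.04 after, and that of Cox7a1 0.92 before and 0.91 after. Ndufb9 had -0.39 before and -0.35 after. The part of the neighbourhood in any single gene's difference was not tested.

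The promoters of nuclear members held the letters of 3 factors' motifs more often than promoters in general. RefSeq windows on GRCm38.p6, from 250 bases before to 50 after the start, were matched by symbol for 74 member genes (79 windows). On either strand, GCGCA and GCGC with any 1 base between them (NRF1) were in 25.3% of member windows, against 4.60% of 32851 windows of all genes and 6.38% of those of protein-coding genes. CCGGAAG (GABPA) was in 22.8%, against 8.86% and 11.6%, and AAGATGGC (YY1) was in 12.7%, against 2.75% and 3.05%. At least 1 of them was in 51.9% of member windows, against 14.7% and 18.9%. The end of the GABPA letters and the start of the YY1 letters can overlap, and a match is a description of these letters, not evidence of binding.

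Promoters are shown for the 3 members with an unadjusted edgeR p under 0.05, namely Sdhb (chr4:140961021-140961320, plus strand), Ndufb7 (chr8:83566508-83566807, plus strand) and Ndufs3 (chr2:90904672-90904971, minus strand). Capitals mark CCGGAAG or its reverse complement.
Sdhb: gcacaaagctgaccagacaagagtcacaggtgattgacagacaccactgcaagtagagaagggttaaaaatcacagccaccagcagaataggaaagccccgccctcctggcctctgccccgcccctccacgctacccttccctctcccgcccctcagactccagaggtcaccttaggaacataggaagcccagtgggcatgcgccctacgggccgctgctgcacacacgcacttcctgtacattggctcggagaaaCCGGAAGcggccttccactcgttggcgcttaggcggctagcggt
Ndufb7: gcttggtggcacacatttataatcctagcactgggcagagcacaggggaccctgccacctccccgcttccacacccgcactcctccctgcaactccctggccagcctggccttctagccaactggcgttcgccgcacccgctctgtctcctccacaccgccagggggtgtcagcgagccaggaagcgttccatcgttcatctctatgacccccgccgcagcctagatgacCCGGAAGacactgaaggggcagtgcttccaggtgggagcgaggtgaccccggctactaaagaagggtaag
Ndufs3: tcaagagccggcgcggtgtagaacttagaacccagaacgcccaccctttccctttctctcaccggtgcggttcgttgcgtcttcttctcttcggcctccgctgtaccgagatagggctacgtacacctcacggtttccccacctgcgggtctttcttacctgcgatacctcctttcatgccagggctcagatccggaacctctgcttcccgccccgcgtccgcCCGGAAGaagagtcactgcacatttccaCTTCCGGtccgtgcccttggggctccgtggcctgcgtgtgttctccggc
All 3 windows held the GABPA letters and none of them the NRF1 or YY1 letters. The gene lower in fx/fx and the 2 genes higher in fx/fx did not differ in this respect.

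Genes that serve the respiratory chain but fall outside the name rule were also counted. Cyc1, a subunit of complex III that the name rule does not match, was among them. Of 55 tested electron carriers and assembly factors, 17 had a higher and 38 a lower fitted level in fx/fx (median log2 fold change -0.076). At an unadjusted edgeR p under 0.05, 0 were higher (background 8.18% of all genes) and 2 lower (background 6.04%). The 2 were Coq2, an enzyme of coenzyme Q synthesis, and Acad9, a complex I assembly factor. Acad9 had 144, 161 and 189.8 CPM in fx1, fx2 and fx3, against 299, 225 and 258 CPM in wt1, wt2 and wt3. It separated the genotypes, with a log2 fold change of -0.66 (SE 0.192, edgeR adjusted p 0.220). Of the nuclear complex I subunits, 22 of 38 had a higher fitted level.

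Of 25 tested genes for upkeep and transcription of mitochondrial DNA, 7 were higher and 18 lower (median -0.14). At the unadjusted p, 0 were higher (background 8.18%) and 2 lower (background 6.04%). These were Tefm, the mitochondrial transcription elongation factor, and Elac2, which cuts transfer RNAs out of mitochondrial precursors, both on chromosome 11. Of 77 tested mitochondrial ribosomal protein genes, 25 were higher and 52 lower (median -0.090). At the unadjusted p, 1 was higher (background 8.18%), namely Mrps6 (log2 fold change 0.90, SE 0.339). Another 2 were lower (background 6.04%), among them Mrps15 on chromosome 4 (-0.64, SE 0.246). The genotypes did not overlap for 12 of the 77 that were lower in fx/fx (background 9.93%) and for 1 that was higher (background 9.74%). Of 19 tested genes of the TCA cycle, 11 were higher and 8 lower (median 0.032). At the unadjusted p, 1 was higher (background 8.18%), namely Idh3a, a catalytic subunit of isocitrate dehydrogenase (log2 fold change 0.84, SE 0.311).

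Known regulators of mitochondrial biogenesis mostly had higher fitted levels in fx/fx. Of 15 tested, 14 had a higher and 1 a lower fitted level (median 0.28), with 3 higher (background 8.18%) and 0 lower (6.04%) at the unadjusted p. The genotypes did not overlap for 5 of the 15, all higher in fx/fx (background 9.74%). By the same measure 1 of the 55 carriers and assembly factors was higher and 4 lower (background 9.93%). For the 25 genes of mitochondrial DNA upkeep it was 0 higher and 1 lower, and for the 19 TCA cycle genes 0 and 0. Hif1a, the oxygen-regulated transcription factor, had 221, 189 and 248 CPM in fx1, fx2 and fx3, against 134, 169.9 and 134 CPM in wt1, wt2 and wt3. The lowest fx/fx library was above the highest wt/wt library, and the log2 fold change was 0.59 (SE 0.189, edgeR adjusted p 0.246). Ppard, a nuclear receptor, had a log2 fold change of 0.41 (SE 0.155, edgeR adjusted p 0.3005). None of these genes passed the threshold.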

How the data were processed

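The authors deposited raw counts per gene (read pairs), made with featureCounts 1.6.0 on the Ensembl release 93 annotation of GRCm38, per the file headers, with strand option 2. The submitters' processing notes name STAR 2.5.1b and featureCounts 1.4.6, so the 2 sources differ in that version. GENCODE M21 gave symbols and gene types for 54165 of 54232 identifiers, and 67 had none.

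Counts were fitted with edgeR 4.0.16 in R 4.3.3 on the 16752 genes past filterByExpr, with TMM scaling and the robust quasi-likelihood test of 3 fx/fx against 3 wt/wt libraries, 2-sided, with Benjamini-Hochberg adjustment and a threshold of 0.05. Fold changes are fx/fx over wt/wt. Deviations by library use log2 CPM with a prior count of 2. The steps were tested on simulated counts. Alternatives were DESeq2 1.42.0, limma 3.58.1 voom, DESeq2 size factors, no count filter, a replicate block, mt- counts left out of library sizes, a length correction and each library left out. A further set, added after the data were seen, was DESeq2 with each library left out, values minus neighbours within 10 Mb, and mt-Nd4 and mt-Co1 left out. Shared sequence is the share of a transcript's 50-base windows that occur in a GENCODE transcript of another gene.

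Replicate numbers did not pair the libraries: same-numbered libraries had correlations of their deviations of -0.085, -0.095 and 0.057. At these depths 3 counts, the limit that a count of 0 allows, equal between 0.0560 and 0.0817 CPM, which covers counting error only. Named genes were Arhgap31, all mt- genes, Sdha to Sdhd, the 2 highest and 2 lowest fold changes per complex at a mean of 5 CPM or more, the 6 smallest p, tissue isoforms with their counterparts, and up to 2 genes per other list. Ndufs5, Ndufa10, Ndufa8, Ndufs7, Ndufa12, Ndufs1, Atp5a1, Atp5b, Atp5g1, Atp5g3, Atp5h, Ndufaf8, Ndufb4, Ndufb11, Uqcr10 and Uqcrq were named after their values were seen. The members, lists and tests were chosen with earlier results of these data known. The values of 1 complex I subunit are not reported here.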

Additional observations from a re-analysis of the deposited data

How the results depend on the processing

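Over all genes edgeR called 0 genes in the analysis reported, 38 without the count filter and 831 with DESeq2, and leaving out each library in turn gave between 0 and 2. The OXPHOS members called were 0 with edgeR, also without the filter, with the replicate block and in every leave-one-out fit, and 1 with DESeq2 (Sdhb). DESeq2 called 5 members without fx2 (Ndufaf6, Ndufb6, Uqcrh and Sdhb lower, mt-Nd5 higher), 1 without wt2 (Sdhb) and 1 without wt3 (Ndufa10), and 0 in the other leave-one-out fits. The replicate block gave 0 calls over all genes and 2081 genes at an unadjusted p under 0.05, against 2381 without it, and changed no call, while the numbers do not pair the libraries. Arhgap31 passed with DESeq2 (log2 fold change -2.40), as did Rpl22 and mt-Rnr2. Leaving out each library gave complex IV medians from -0.042 to 0.21.

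Of 897 values of 69 named genes, Arhgap31 not among them, under 13 alternatives, 862 kept their direction and side of the threshold. Another 3 passed it newly and 32 changed direction, in 21 genes, all with small differences. The length correction turned Cox6a1 (0.096), Cox7a2 (0.069) and Uqcr10 (0.11). Only leaving out fx3 turned mt-Co1 (-0.21 to 0.28), mt-Cytb (-0.10 to 0.47), mt-Nd1 (-0.073 to 0.36), mt-Nd2 (-0.012 to 0.35), mt-Nd4 (-0.10 to 0.53), Sdhd (-0.091 to 0.13), Uqcrb (-0.0024 to 0.23), Cox6b1 (-0.042 to 0.26), Cox8a (-0.057 to 0.19), Ndufa4 (-0.11 to 0.19) and Atp5a1 (-0.0086 to 0.11), where the log2 fold changes in parentheses are the range over the leave-one-out fits. Leaving out other libraries turned Ndufaf1 (-0.18 to 0.18), Ndufaf4 (-0.51 to 0.24), Cox6a1 (-0.14 to 0.032), Atp5d (-0.41 to 0.031), Cox4i1 (-0.16 to 0.12), Cox7a2 (-0.22 to 0.094), Ndufa12 (-0.39 to 0.087), Atp5b (-0.31 to 0.14), Uqcr10 (-0.35 to 0.19) and Uqcrq (-0.26 to 0.11). The cause was not tested. Values minus the chromosome median or the neighbours are descriptions without a test, and 3 libraries a genotype limit what could be called.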

Other observations

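Proteins that move metabolites and precursors across the mitochondrial membranes formed another list. Of 30 tested genes of membrane transport and import, 22 had a higher and 8 a lower fitted level in fx/fx (median log2 fold change 0.086). At an unadjusted edgeR p under 0.05, 1 was higher (background 8.18% of all genes) and 1 lower (background 6.04%). The genotypes did not overlap for 3 that were higher (background 9.74%) and 2 that were lower (background 9.93%). Slc25a4, the ADP/ATP carrier of heart and muscle, had 285, 178 and 337 CPM in fx1, fx2 and fx3, against 162, 161 and 200.5 CPM in wt1, wt2 and wt3. Its log2 fold change was 0.61 (SE 0.258, edgeR adjusted p 0.342). The fx2 library lay within the wt/wt range. Tomm5, a small subunit of the outer membrane import pore encoded on chromosome 4, had 21.5, 30.5 and 29.8 CPM in fx/fx and 42.1, 45.4 and 44.7 CPM in wt/wt, without overlap (log2 fold change -0.69, SE 0.194, edgeR adjusted p 0.217).

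Cytosolic ribosomal protein genes, set beside the members as another abundant housekeeping class, behaved differently by library. Of 82 tested, 2 had a higher and 80 a lower fitted level in fx/fx (median log2 fold change -0.31). At the unadjusted p, 3 were lower (background 6.04%), and DESeq2 called 1 lower, Rpl22 (background 1.95%). The genotypes did not overlap for 11, all lower in fx/fx (background 9.93%). Their median deviation from the wt/wt mean was -0.89 in fx1, -0.16 in fx2 and -0.060 in fx3, and -0.14 in wt1, 0.093 in wt2 and 0.044 in wt3. The fx1 library alone was far below the rest, whereas the nuclear OXPHOS median of fx1 was -0.076. Rpl22 (log2 fold change -1.18, SE 0.221) and Rps20 (-0.82, SE 0.329) lie on chromosome 4.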
